A study of Mus musculus with 9 samples.

Results

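The Sonic hedgehog pathway was followed through 9 genes, Shh, Ptch1, Smo, Gli1, Gli2, Gli3, Hhip, Sufu and Boc, out of 54232 genes in the count table. They were chosen by name, as ligand, receptors, transducers and targets of the pathway, because Shh had shown high levels with both hairpins in these same libraries. The values of Shh therefore selected the set and are given as a description without a test. The other 8 members were read from fits over all genes, and the question was whether they followed the ligand gene.

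The cells were primary mouse embryonic neural stem cells, labelled as from the brain subventricular zone and cultured on laminin in medium with the growth factors FGF and EGF. All groups carried a short hairpin RNA: shNT is a non-targeting control, and sh900 and sh902 are 2 hairpins against Phf2, a gene of the KDM7 family of histone demethylases. RNA was taken on day 3 after treatment. Each group had 3 RNA-seq libraries, 1 with no date in its title, 1 marked 30 August and 1 marked 3 September. Genotype, strain and age of the source animals, and the vector that carried the hairpins, are not given in the labels, which also do not say whether the libraries came from separate cultures or animals. The p-values therefore reflect only how far these libraries differ, part of which may be technical. Where 3 values of a group are listed, they stand in the order undated, 30 August, 3 September.

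In hedgehog signalling a secreted ligand binds the receptor Ptch1, which otherwise holds the membrane protein Smoothened inactive. Released Smoothened acts in the primary cilium on the Gli transcription factors, which Sufu restrains. Ptch1, Hhip and Gli1 are themselves classical targets of the pathway, so their transcripts are widely used as its readout. In the subventricular zone the pathway is known for its part in maintaining adult neural stem cells, and in the embryo Shh patterns the ventral neural tube.

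Library totals ran from 23212472 to 32392496 counts, so 1 CPM (counts scaled to 1000000 per library) rests on about 23 to 32 counts. Phf2 was lower in all 6 hairpin libraries (13.5 to 29.2 CPM) than in the 3 controls (49.5 to 57.4). The controls were far apart in other respects: Mki67, a gene of cycling cells, stood at 297, 849 and 61.2 CPM in the 3 control libraries, and Gfap, an astrocyte gene, at 621, 8.57 and 1401 CPM. Libraries that shared a date deviated together from their group means. The undated control did not go with the undated hairpin libraries (correlations of 0.145 and 0.0799) as well as with those of 3 September (0.285 and 0.302). The blocked values of the members are therefore also given without it. For the other genes that were called, values or calls without it are given for some. The neural stem cell genes Sox2 (167 to 352 CPM) and Nes (116 to 1973 CPM) were present in every library. Foxa2, which defines the Shh-producing floor plate, was at 0 counts in 7 of 9 libraries and at most 0.155 CPM.

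Promoters of 6 of the 9 members are in the RefSeq table for GRCm38.p6 (Ptch1, Smo, Gli2, Gli3, Hhip and Sufu; Shh, Gli1 and Boc are named only). Those of Hhip and Ptch1 are shown because both genes are classical Gli targets, Ptch1 with all 6 ratios to the same-label control below 1 and Hhip with 4 of 6 above 1, and neither was called. Each line gives the 250 bases before the start site on the gene's strand, chr8:80058009-80058258 and chr13:63565736-63565985, both on the minus strand. Capitals mark a stretch closest to the Gli motif GACCACCCA on either strand. Where several stretches match equally well, as in Ptch1, only the first found is marked. This partial search was added after the full motif had been found in none of the 6 windows.
Hhip: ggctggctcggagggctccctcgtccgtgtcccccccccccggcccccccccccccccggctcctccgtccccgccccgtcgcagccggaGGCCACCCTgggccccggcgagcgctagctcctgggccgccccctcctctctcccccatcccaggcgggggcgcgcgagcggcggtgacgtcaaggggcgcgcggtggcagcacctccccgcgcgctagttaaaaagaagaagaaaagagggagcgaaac
Ptch1: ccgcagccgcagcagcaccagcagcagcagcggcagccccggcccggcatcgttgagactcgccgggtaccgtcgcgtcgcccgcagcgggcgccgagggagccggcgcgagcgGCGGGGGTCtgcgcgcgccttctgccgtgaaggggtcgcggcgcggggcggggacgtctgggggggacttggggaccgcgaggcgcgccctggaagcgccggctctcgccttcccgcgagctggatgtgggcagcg
The Hhip stretch matches 7 of the 9 letters and the Ptch1 stretch, read on the opposite strand, 6. The best match is also 7 letters in Smo and Gli2 and 6 in Gli3 and Sufu. The 2 printed windows therefore do not stand out among the members. Of 32851 mouse promoter windows of 300 bases, 0.253% hold the full motif and 6.74% a match of at least 8 letters, so closer matches than these 2 occur in other promoters. The windows do not cover distal elements, and the Ptch1 start site of this table lies inside the GENCODE gene, which begins further upstream.

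The ligand gene Shh (ENSMUSG00000002633, chromosome 5, 28456815 to 28467256 on GRCm38) was near the limit of detection in the controls and higher in all 6 hairpin libraries than in the control with the same label. In shNT it had 10, 2 and 6 counts, corresponding to 0.372, 0.0752 and 0.233 CPM. With sh900 it had 275, 5 and 37 counts, or 8.49, 0.179 and 1.43 CPM, and with sh902 it had 962, 22 and 133 counts, or 30.1, 0.942 and 5.73 CPM. The undated hairpin libraries thus carried most of the Shh transcript of the series, while those of 30 August overlapped the range of the controls with sh900. The ratio to the same-label control ran from 2.39 with sh900 on 30 August (95% counting interval 0.391 to 25.1) to 80.8 with sh902 in the undated pair (43.8 to 169). The level with sh902 was 3.54, 5.25 and 4.01 times that with sh900 at the 3 labels. Phf2 was slightly higher with sh902 than with sh900 at each label. Counting intervals do not include variation between cultures, and reads copied by PCR are not independent molecules.

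**Figure D1:**
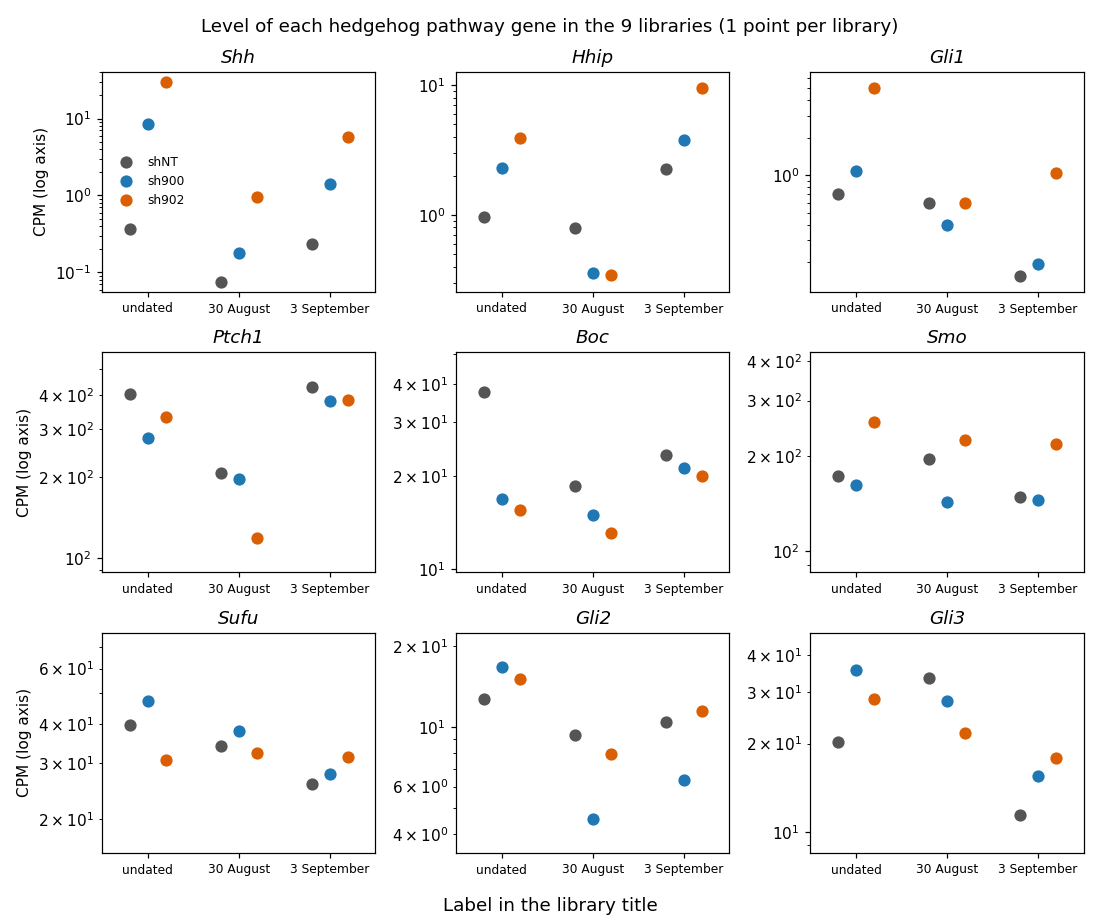
CPM on log axes (y) of the 9 genes, 1 panel each, by the label in the library title (x), with 1 point per library (grey shNT, blue sh900, orange sh902). Shh is lowest in the control at every label, Ptch1 and Boc are highest in it, and Smo with sh902 (218 to 256 CPM) lies above all other libraries.

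With edgeR's quasi-likelihood fit without a term for the label, 0 of the 8 other members were called (Benjamini-Hochberg adjusted p under 0.05 over 17602 genes) for the mean of both hairpins, for either hairpin or between hairpins. The background there was 0.0% of all genes in each of these contrasts, so this fit separates nothing. At an unadjusted p under 0.05 it had 1 member for the mean of both hairpins (Boc), 0 for sh900, 2 for sh902 (Smo and Boc) and 1 between the hairpins (Smo). The shares of all genes at that threshold were 16.0%, 14.7%, 15.8% and 14.4% in the same order. Counts this small among 8 members do not stand out from that background.

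A replicate block, a term for the label, gave calls at 11.7% of all genes for the mean of both hairpins (6.08% higher and 5.59% lower), 8.85% for sh900, 10.5% for sh902 and 4.22% for sh902 minus sh900. With the same filter and TMM factors it again called 0 of 8 members in each contrast; with no low-count filter or with library size alone it called Boc, Gli1 or Smo in some contrasts, as listed with the alternatives. At an unadjusted p under 0.05 the blocked edgeR fit had 1 member for the mean (Boc), 0 for sh900, 3 for sh902 (Smo, Boc and Gli1) and 2 between the hairpins (Smo and Gli1). The shares of all genes at that threshold were 29.1%, 26.9%, 28.8% and 22.7% in the same order, so these counts do not stand out from the background. DESeq2 called 3.71% of all genes for the mean without the block and 16.8% with it, and 0 of 8 members in both. With the block DESeq2 called Boc and Gli1 for sh902 and Smo between the hairpins. Its share of all genes for these contrasts is not given here. The members' median blocked log2 fold change for the mean of both hairpins was 0.11, against -0.02 over all genes.

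**Figure D2:**
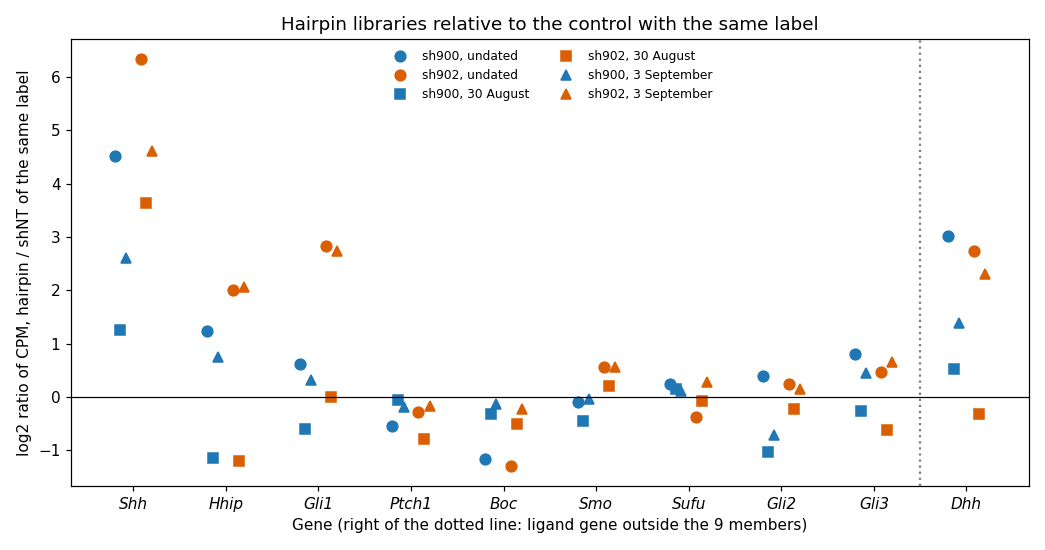
log2 ratio of CPM in each hairpin library to the control of the same label (y) for the 9 genes and, right of the dotted line, Dhh (x); blue sh900, orange sh902, circles undated, squares 30 August, triangles 3 September. Shh lies above 0 in 6 of 6 ratios and Ptch1 and Boc below 0 in 6 of 6, while Hhip runs from -1.20 to 2.07.

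Ptch1 (chromosome 13, 63508328 to 63573598) encodes the main receptor, which is both a brake on the pathway and its target. It was abundant, and lower, not higher, in each hairpin library than in the control with the same label. The controls held 404, 205 and 430 CPM, sh900 held 279, 196 and 380, and sh902 held 331, 119 and 384. The difference between labels was larger than that between groups, and the groups overlapped. For the mean of both hairpins the blocked log2 fold change came to -0.31 ± 0.17 (SE, edgeR adjusted p = 0.269), with a 95% interval of -0.70 to 0.08. In fold terms the interval ran from 0.616 to 1.06. Without the block the value was -0.30 ± 0.37 (SE, edgeR adjusted p = 0.702) and the fold interval ran from 0.453 to 1.46, so a rise within that range is not left out. With the block and without the undated control the value was -0.29 (adjusted p = 0.526).

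Hhip (chromosome 8, 79965851 to 80058006) encodes a membrane protein that binds and sequesters hedgehog ligands, and is a target of the pathway. In shNT it stood at 0.968, 0.789 and 2.25 CPM, with sh900 at 2.28, 0.359 and 3.78, and with sh902 at 3.91, 0.343 and 9.43. It was thus higher than the control with both hairpins in the undated and 3 September libraries, and lower with both on 30 August, where Shh was also lowest. On 30 August the counts were 21 for shNT, 10 for sh900 and 8 for sh902, and the 95% counting intervals of both ratios (0.191 to 1.01 and 0.166 to 1.02) reached 1. For the mean of both hairpins the blocked log2 fold change came to 0.76 ± 0.54 (SE, edgeR adjusted p = 0.389). It was called without the 30 August control (1.52, adjusted p = 0.0201) and fell to 0.29 (adjusted p = 0.855) without the undated one.

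Boc (chromosome 16, 44485049 to 44558897) encodes a co-receptor that helps the ligand reach Ptch1 and is known to be lowered by the pathway in the embryo. It stood at 37.7, 18.6 and 23.5 CPM in the 3 control libraries, at 16.9, 15.0 and 21.3 with sh900 and at 15.5, 13.1 and 20.1 with sh902. Every hairpin library was below its same-label control, most of all in the undated ones, and the groups overlapped. For the mean of both hairpins the blocked log2 fold change came to -0.61 ± 0.19 (SE, edgeR adjusted p = 0.0748). Without the undated control it was -0.30 (adjusted p = 0.361), and without the 30 August control it was -0.72 (adjusted p = 0.0487) and called.

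Smo (chromosome 6, 29735503 to 29761365) encodes Smoothened, the membrane protein that passes the signal on. It differed between the hairpins. The controls held 173, 195 and 148 CPM, sh900 held 161, 142 and 145, and sh902 held 256, 224 and 218. The 3 libraries of sh902 did not overlap with the other 6. The level with sh902 was 1.59, 1.57 and 1.51 times that with sh900 at the 3 labels, a narrow range. The blocked log2 difference of sh902 minus sh900 was 0.56 ± 0.13 (SE, edgeR adjusted p = 0.0518, 95% interval 0.27 to 0.86), and that of sh902 minus shNT was 0.41 ± 0.13 (SE, adjusted p = 0.0806). Both missed the threshold over all genes. Without the undated control the difference from shNT was 0.34 (adjusted p = 0.277) and that between the hairpins 0.56 (adjusted p = 0.0664). For the difference between the hairpins, DESeq2 with the block called Smo, as did edgeR with the block in 4 other settings, which are named with the alternatives.

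Sufu (chromosome 19, 46396896 to 46488804), the cytoplasmic inhibitor of the Gli factors, was close in its mean across the groups. It ran from 25.7 to 39.8 CPM in shNT, from 27.7 to 47.2 with sh900 and from 30.8 to 32.4 with sh902. For the mean of both hairpins the blocked log2 fold change came to 0.08 ± 0.16 (SE, edgeR adjusted p = 0.786), with an interval of -0.28 to 0.44, and without the undated control 0.12 (adjusted p = 0.790).

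Gli1 (chromosome 10, 127329882 to 127341974), an activator that is itself induced by the pathway, was scarce. Counts were 19, 16 and 4 in the 3 control libraries, 35, 11 and 5 with sh900 and 161, 14 and 24 with sh902. As CPM these are 0.707, 0.601 and 0.155 for shNT, 1.08, 0.395 and 0.193 for sh900, and 5.03, 0.600 and 1.03 for sh902. Gli1 with sh902 was 7.12 times the control in the undated pair (95% counting interval 4.41 to 12.1) and 6.66 times on 3 September (2.29 to 26.4), but level on 30 August (0.997, interval 0.451 to 2.18). With sh900 the 3 ratios were 1.53, 0.657 and 1.24, and each counting interval included 1.

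The blocked log2 fold change of Gli1 with sh902 was 1.88 ± 0.58 (SE, edgeR adjusted p = 0.0762, 95% interval 0.55 to 3.21), and with sh900 it was 0.09 ± 0.60 (SE, adjusted p = 0.943, interval -1.29 to 1.47). The difference between the hairpins was 1.79 ± 0.56 (SE, adjusted p = 0.109). Without the undated control the edgeR values were 1.33 for sh902 (adjusted p = 0.324), -0.44 for sh900 (adjusted p = 0.769) and 1.77 between the hairpins (adjusted p = 0.114). Gli1 was higher with sh902 than with sh900 at each label, as Shh was.

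Gli2 (chromosome 1, 118834132 to 119053619), the main activator downstream of Smoothened, and Gli3 (chromosome 13, 15463235 to 15730026), the main repressor, showed no common direction. Gli2 stood at 12.8, 9.32 and 10.4 CPM in the 3 control libraries, at 16.7, 4.56 and 6.33 with sh900 and at 15.1, 7.97 and 11.5 with sh902. Gli3 stood at 20.3, 33.5 and 11.4 CPM in shNT, at 35.6, 27.9 and 15.4 with sh900 and at 28.3, 21.7 and 17.9 with sh902. Both genes were above the control with both hairpins in the undated libraries and below it with both on 30 August. The blocked log2 fold changes of both hairpins were -0.18 ± 0.25 for Gli2 (SE, edgeR adjusted p = 0.682) and 0.24 ± 0.23 for Gli3 (SE, adjusted p = 0.534), and without the undated control -0.45 and 0.024 (adjusted p = 0.415 and 0.971).

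**Figure D3:**
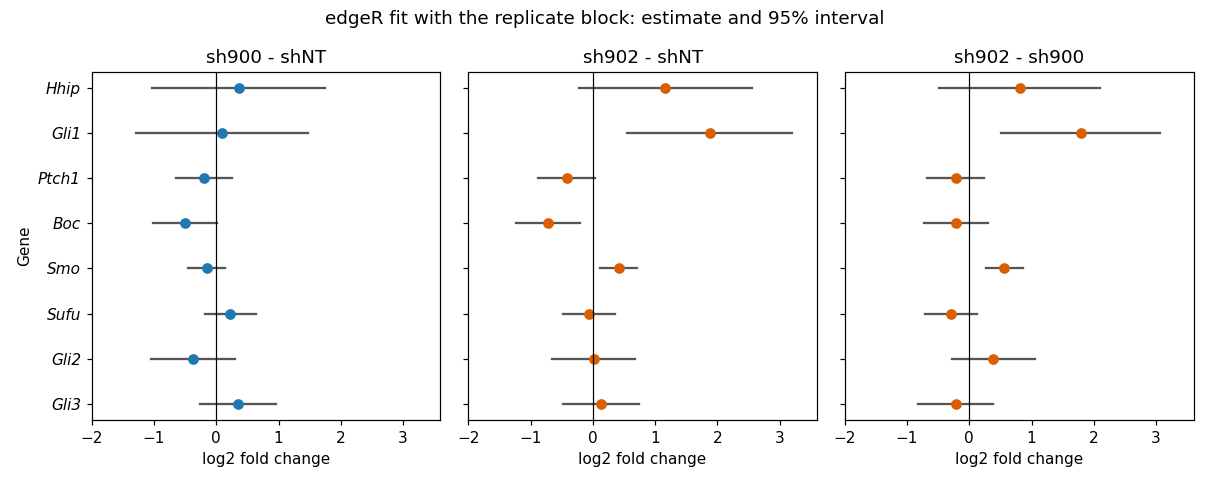
log2 fold change (x) of the 8 members other than Shh (y) in the edgeR fit with the replicate block, for sh900 minus shNT, sh902 minus shNT and sh902 minus sh900; points are estimates and lines 95% intervals. The intervals of Gli1, Boc and Smo for sh902 minus shNT and of Gli1 and Smo for sh902 minus sh900 leave out 0. None of these passed the adjustment over all genes. In these contrasts 28.8% and 22.7% of all genes had an unadjusted p under 0.05.

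Across the 9 libraries the target genes differed in how far they went with Shh. The correlation of log2(CPM + 1) with Shh was 0.867 for Gli1 (Spearman 0.65), 0.630 for Hhip (0.717) and 0.230 for Ptch1 (0.133). Without the undated sh900 and sh902 libraries, where Shh was highest, Gli1 fell to 0.511 (Spearman 0.25), Hhip stood at 0.828 (0.571) and Ptch1 at 0.257 (0.143). The relation of Gli1 to Shh thus rested largely on these libraries. The points share libraries, labels and depth, so these values are descriptions.

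**Figure D4:**
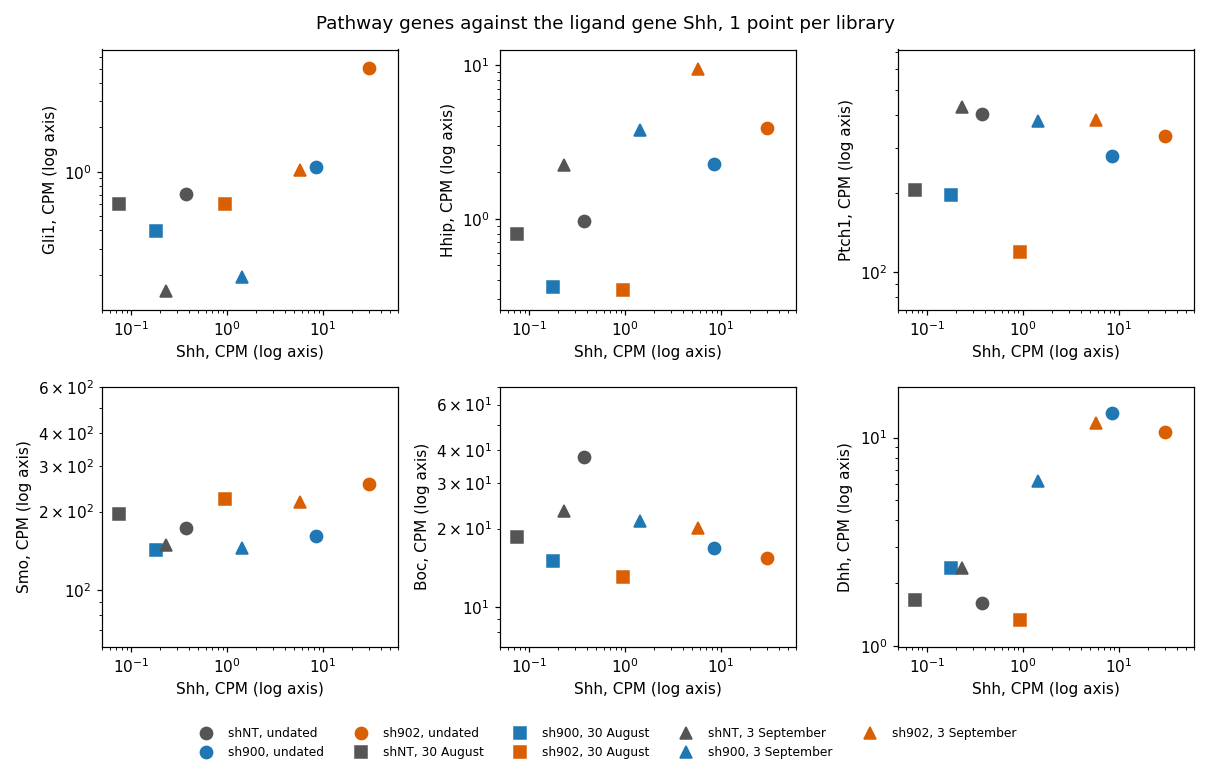
CPM of Gli1, Hhip, Ptch1, Smo, Boc and Dhh (y, log axes) against CPM of Shh (x, log axis), 1 point per library; colours mark the group and symbols the label. Gli1 is highest (5.03 CPM) in the library with most Shh (30.1 CPM), and Ptch1 shows no rise along the axis.

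The genes whose pattern was most like that of Shh, by Pearson correlation of log2(CPM + 1) over 9 libraries among 12446 genes with a mean of at least 1 CPM, were Frem1 (0.952), Col8a1 (0.949), Sulf1 (0.940), Tlr4 (0.937) and Prdm1 (0.935). For Gli1 they were B3gnt2 (0.935), Sulf1 (0.926), Col6a5 (0.901), Hmcn1 (0.895) and Olfml2b (0.894). These sets depended on the measure: by Spearman correlation only Prdm1 was again among the first 5 for Shh. Sulf1, a sulfatase that edits heparan sulfate, was in both sets, at 13.9, 26.0 and 67.0 CPM in the undated shNT, sh900 and sh902 libraries.

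Per kilobase of annotated exon, Smo was the most abundant member at a mean of 32.9 CPM over all 9 libraries, followed by Ptch1 at 21.4, Boc at 4.53, Sufu at 4.44, Gli3 at 2.46, Shh at 1.85, Gli2 at 1.53, Hhip at 0.295 and Gli1 at 0.218. Smo was above Ptch1 in 7 libraries, and Ptch1 above Boc in all 9. Boc and Sufu (Boc higher in 4 of 9), Shh and Gli2 (Shh higher in 3 of 9) and Hhip and Gli1 (Hhip higher in 4 of 9) changed places between libraries. In the controls Shh was the lowest member, at 0.0796 CPM per kilobase, and with sh902 it reached 4.30.

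Of 82 other genes of the pathway, 76 passed the expression filter. With the block, 7 were higher and 3 lower for the mean of both hairpins, a share of 13.2% against 11.7% of all genes, and without the block 0 were called. The share was 9.21% for sh900 and 7.89% for sh902, again near the background. Leaving out the undated control took the blocked count to 0, where 1.42% of all genes were called, and leaving out the 30 August control took it to 15. For the latter fit the share of all genes called is not given here, so the 15 has no background beside it.

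Among ligands, Dhh, which encodes Desert hedgehog, was at 1.60, 1.65 and 2.37 CPM in the 3 control libraries, at 13.1, 2.37 and 6.18 with sh900 and at 10.6, 1.33 and 11.7 with sh902. It was higher in 5 of 6 ratios, with the blocked log2 fold change at 1.61 ± 0.56 (SE, edgeR adjusted p = 0.109), or 1.02 without the undated control (adjusted p = 0.383). Exons of Dhh overlap those of Rhebl1 on the same strand, so its counts are uncertain. Ihh, the gene of Indian hedgehog, did not pass the filter (at most 0.250 CPM). Hhat, which attaches palmitate to the ligand, had its blocked log2 fold change at -0.32 ± 0.25 (SE, edgeR adjusted p = 0.436), and Disp1, which releases the ligand, at -0.01 ± 0.20 (SE, adjusted p = 0.978).

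Cdon and Gas1, which encode co-receptors acting beside Boc, stood at -0.25 ± 0.20 and 0.14 ± 0.32 (SE, edgeR adjusted p = 0.451 and 0.825) for the mean of both hairpins. Gpc3, a glypican that competes with Ptch1 for the ligand, fell by 1.90 on the log2 scale (SE 0.45, edgeR adjusted p = 0.0330), and stood at -2.08 without the undated control (adjusted p = 0.122).

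Of 20 genes of cilium assembly and transport 3 were higher and 0 lower with the block (15.0% higher). Of 24 cytoplasmic and ciliary regulators 2 were higher and 1 lower (8.33% higher). Over all genes 6.08% were higher, and the regulators' share is near that background. In either direction the cilium list's 15.0% is close to the 11.7% of all genes. Without the undated control 0 genes of both lists were called for the mean of both hairpins. Rab34, needed for cilium formation, was higher in 6 of 6 ratios, at 23.7 to 27.5 CPM in shNT, 32.5 to 44.5 with sh900 and 43.8 to 60.1 with sh902, so that no hairpin library overlapped the controls. Its blocked log2 fold change was 0.86 ± 0.15 (SE, edgeR adjusted p = 0.0133), and it was called in 8 of 9 fits that left out 1 library, the exception being the fit without the undated control (0.81, adjusted p = 0.0820). The intraflagellar transport genes Ift27 (0.59 ± 0.13, SE, edgeR adjusted p = 0.0270) and Ift88 (0.64 ± 0.14, SE, adjusted p = 0.0286) rose too, and were called in 2 of those 9 fits each. Tulp3, which carries receptors into cilia, rose by 0.75 ± 0.19 (SE, edgeR adjusted p = 0.0390) and Evc2, a ciliary partner of Smoothened, by 0.53 ± 0.13 (SE, adjusted p = 0.0411). By single hairpin, Tulp3 was called with sh900 (1.17 ± 0.21, SE, edgeR adjusted p = 0.0187) and not with sh902. Evc2 was called with sh902 (0.72 ± 0.15, SE, edgeR adjusted p = 0.0251) and not with sh900. Gpr161, a ciliary receptor that restrains the pathway, fell by 0.50 on the log2 scale (SE 0.12, edgeR adjusted p = 0.0384). Kif7, a kinesin of the cilium tip, stood at -0.35 ± 0.12 (SE, edgeR adjusted p = 0.110).

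Targets outside the members split. Ccnd2, a cyclin gene, rose with its blocked log2 fold change at 2.42 ± 0.49 (SE, edgeR adjusted p = 0.0289), from 278, 1086 and 217 CPM in the 3 control libraries to 4042, 4554 and 2037 with sh900 and 1648, 1315 and 1473 with sh902. Ccnd1 stood at 2.10 ± 0.91 (SE, edgeR adjusted p = 0.193), with controls at 146, 1603 and 29.8 CPM. The marker gene of cycling cells, Mki67, varied with the same controls, and its part in the cyclin values was not tested. Prdm1, a transcription factor gene, rose by 1.61 ± 0.40 (SE, edgeR adjusted p = 0.0395) and Cdk6, a cell cycle kinase gene, fell by 0.66 on the log2 scale (SE 0.17, adjusted p = 0.0420). Without the undated control none of the 10 was called, and their log2 fold changes ran from -2.08 (Gpc3) to 2.03 (Ccnd2) with each direction as before. Except for Rab34, each of the 10 genes called was called in at most 3 of the 9 fits that left out 1 library.

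Mycn, a target that drives proliferation of neural precursors, went opposite ways with the hairpins. It stood at 17.8, 3.46 and 19.3 CPM in the 3 control libraries, at 5.22, 2.15 and 12.04 with sh900 and at 21.2, 8.01 and 34.9 with sh902. It was below the control with sh900 and above it with sh902 at each label. The blocked log2 difference of sh902 minus sh900 was 1.73 ± 0.25 (SE, edgeR adjusted p = 0.0208), called in 4 of 9 fits that left out 1 library. The value for sh900 minus shNT was -1.02 ± 0.24 (SE, adjusted p = 0.0408) and for sh902 minus shNT 0.71 ± 0.24 (SE, adjusted p = 0.0943). Without the undated control the edgeR values were 1.74 between the hairpins (adjusted p = 0.0317), -0.70 for sh900 (adjusted p = 0.133) and 1.04 for sh902 (adjusted p = 0.0592). For Mycn, Gli1, Smo and Shh alike, sh902 was above sh900 at all 3 labels. The same held for Ccnd1, Hhat, Prdm1, Mki67, Phf2 and Gpr161, which restrains the pathway. For Ccnd2, Cdon, Gas1 and Boc, and also for En2 and Hes5, sh902 was below sh900 at all 3. Gli1 on 30 August rested on 14 counts with sh902 and 11 with sh900. How often a gene keeps its direction over the labels was not counted over all genes.

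**Figure D5:**
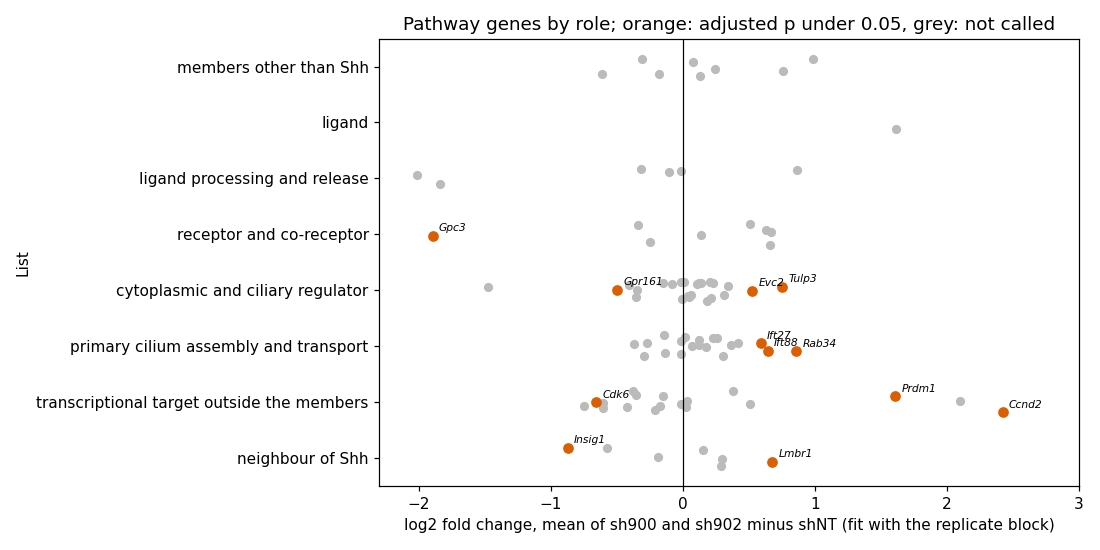
Blocked log2 fold change for the mean of sh900 and sh902 minus shNT (x) of the members other than Shh, the other pathway genes and the neighbours of Shh, by role (y); orange points have an adjusted p under 0.05 and carry a name, grey points were not called and the vertical scatter within a row has no meaning. The 10 pathway genes called lie on both sides of 0, 7 higher and 3 lower.

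Of 8 neighbours of Shh on chromosome 5, 7 passed the filter. Lmbr1, whose intron holds a distant limb enhancer of Shh, rose by 0.68 ± 0.13 (SE, edgeR adjusted p = 0.0187), and Insig1, a sterol regulator gene, fell by 0.87 on the log2 scale (SE 0.17, adjusted p = 0.0172). Each went the same way in 6 of 6 ratios and was called in 6 of 9 fits that left out 1 library. Without the undated control Insig1 was called (-1.11, edgeR adjusted p = 0.0365) and Lmbr1 was not (0.65, adjusted p = 0.10). Rbm33 (-0.18 ± 0.10, SE, edgeR adjusted p = 0.242), Nom1 (0.30 ± 0.13, SE, adjusted p = 0.180), En2 (0.29 ± 0.15, SE, adjusted p = 0.247) Cnpy1 (-0.58 ± 0.16, SE, adjusted p = 0.0530) and Ube3c (0.15 ± 0.17, SE, adjusted p = 0.610) were not called, and Mnx1 did not pass the filter.

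Markers of other cell types moved as well. With the block, 5 of the 6 oligodendrocyte lineage genes past the filter and 4 of the 6 neuronal ones fell in the contrast of both hairpins with shNT, against 5.59% of all genes lower. Of 5 astrocyte genes Aqp4 and Gja1 fell, of 10 neural stem cell genes Nes and Vim rose and Hes5 and Pax6 fell, and the ependymal gene Ccdc153 rose. Single genes of 3 other lists fell: Kdr (endothelial), Pdgfrb (fibroblast and pericyte) and Cdh1 (epithelial). In the same order 2 of 5, 6 of 6 and 1 of 6 genes of these 3 lists passed the filter. The summed endothelial list was at most 8.38 CPM and the summed epithelial list at most 3.46 CPM, both in shNT. Of the floor plate list, Spon1 fell. The edgeR fit without the block called 0 genes in each of these lists. With the block and without the undated control, 0 neuronal, oligodendrocyte and astrocyte genes were called, although 6 of 6, 6 of 6 and 4 of 5 had log2 fold changes below 0, while Nes, Vim and Ccdc153 were called higher and Spon1 lower. The summed oligodendrocyte list ran from 88.7 to 893 CPM in shNT, 40.7 to 340 with sh900 and 37.1 to 141 with sh902, and the summed neuronal list from 678 to 1992, 560 to 1166 and 478 to 913 CPM. Of these lists Mog and Rbfox3 did not pass the filter. Proliferation genes, 8 of 8 past the filter, had 0 calls in the edgeR fits with and without the block and ran from 228 to 2541 CPM summed in shNT, 584 to 1164 with sh900 and 844 to 1555 with sh902. Their part in the values of the members was not tested. In these bulk samples fewer cells of a type and less RNA per cell cannot be told apart.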

How the data were processed

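The members and gene lists were chosen with earlier results of these data known. The authors deposited a table of estimated counts, all whole numbers, for 54232 Ensembl identifiers and 9 libraries. Per the submitters' processing notes, FastQC, cutadapt, Trimmomatic 0.36, STAR 2.5.0a and RSEM were used with GRCm38. The sources used here give neither the annotation release nor any use of strand in counting, so reads of a gene and an overlapping antisense gene cannot be told apart: exons of Shh, Gli1, Gli3, Hhip and Dhh overlap genes on the other strand. Symbols and coordinates came from GENCODE M21 (54165 identifiers matched, 67 did not).

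CPM are counts scaled to 1000000 per library. Genes were tested in R 4.3.3 by the quasi-likelihood method of edgeR 4.0.16 with robust dispersions, TMM factors and the default expression filter by group (17602 genes holding 99.9% of counts), over 9 libraries in 3 groups, with Benjamini-Hochberg adjustment over all genes and no block. The first alternative added the label in the titles as a replicate block. As a check of pairing, each library's deviations from its group mean were correlated: r was 0.402 to 0.627 within 30 August, 0.456 to 0.645 within 3 September, 0.0799 to 0.399 among undated libraries and -0.661 to 0.302 between labels. The dated libraries are paired by their titles, and the undated ones share only the absence of a date. Standard errors are the log2 fold change over the square root of F, and 95% intervals, added after the values were seen, use the degrees of freedom implied by the test. Scripts were tested on simulated data.

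Other alternatives were DESeq2 1.42.0, RLE factors, library size alone, other filters, the groups compared alone, the dated libraries alone, TMM-scaled CPM, Spearman correlation, a pseudocount of 0.1 in place of 1, and each library left out in turn. 4 settings with the block were added after seeing the data. Genes were named by a rule: the members, 12 further pathway genes (1 of them not reported here), up to 4 genes per list called with the block, the neighbours of Shh, and the 5 genes most like Shh and Gli1. Other names, such as Gsk3b, Igf2 and the marker genes, were chosen after their values were seen, as was the correlation without 2 libraries. Depth limits genes under about 1 CPM, where intervals cover counting error only.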

Additional observations from a re-analysis of the deposited data

Results flagged for a closer look

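In 4 members both hairpin libraries went one way at one label and the opposite way at another, a difference between labels that was not tested. The mean log2 ratio of both hairpins to the control was higher in the undated libraries than in those of 30 August by 2.03 for Gli1, 0.95 for Gli2, 1.09 for Gli3 and 2.80 for Hhip. For Gli1 on 30 August, the sh902 ratio was 0.997.

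In 3 of the 76 other pathway genes tested (3.95%, against 4.22% of all genes) the hairpins differed from each other in the blocked edgeR fit, a share near the background. Sh902 minus sh900 was 1.73 for Mycn (adjusted p = 0.0208), -0.91 for Gsk3b, a kinase gene of the pathway (adjusted p = 0.0277), and -1.78 for Igf2, a growth factor gene (adjusted p = 0.0467). Gsk3b stood at 218, 219 and 213 CPM with sh900 and at 132, 102 and 136 with sh902 in the undated, 30 August and 3 September libraries. Of the 9 fits that left out 1 library, Mycn and Gsk3b were called in 4 each and Igf2 in 1. Without the undated control the values were 1.74, -0.90 and -1.77 (edgeR adjusted p = 0.0317, 0.0385 and 0.0679). That fit also called Tulp3, lower with sh902 than with sh900, and it called 3.39% of all genes.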

How the results depend on the processing

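Member calls appeared only with the replicate block. The blocked fits that left out 1 library called 0 to 2 members for the mean of both hairpins, 0 to 1 for sh900, 0 to 4 for sh902 and 0 to 2 between the hairpins. All of these came without the 30 August control (Boc and Hhip; Gli3; Boc, Gli1, Hhip and Smo; Gli1 and Smo), apart from Gli1 for sh902 without the 30 August sh902 library. With no filter on low counts and the block, 1 member was called for the mean (Boc), 1 for sh902 (Gli1) and 2 between the hairpins (Gli1 and Smo). The groups compared alone with the block gave 2 between the hairpins (Gli1 and Smo), and library size alone with the block gave 1 (Smo). DESeq2 with the block called 2 for sh902 and 1 between the hairpins. The share of all genes called in the settings with member calls is not given here for these contrasts. The calls therefore have no background beside them and are not read as results about the members.

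For the 82 other pathway genes the count of 0 became 10 with the block, 10 with RLE factors and the block, 9 with library size alone or no filter and the block, 7 with DESeq2 and 16 with DESeq2 and the block. DESeq2 called 3.71% of all genes without the block and 16.8% with it. The blocked leave-one-out counts ran from 0 (undated control) to 14 (30 August sh902 library) and 15 (30 August control). For the fits with 14 and 15 calls the share of all genes is not given here, so neither count is read as a result about the pathway. The dated libraries alone with the block gave 0.

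Gli2, Gli3 and Sufu, all near 0, changed sign for the mean of both hairpins. Gli2 ranged from -0.47 to 0.12 over all settings: it was 0.07 without the undated control, 0.043 with the block and without the 30 August control, 0.12 without the 30 August sh900 library, 0.06 without the 30 August sh902 library, 0.07 without the 3 September sh900 library and 0.0082 with no filter. Its lowest value in the leave-one-out fits was -0.44. Gli3 was -0.14 without the 3 September control and up to 0.67 without the 30 August one. Sufu was -0.023 when sh900 lacked its undated library, -0.10 without the 3 September control and -0.028 with the block and without the 3 September sh902 library, and up to 0.21 without the undated control. Ptch1, Smo, Gli1, Hhip and Boc kept their direction in all 29 alternatives. Of the 5 genes most like Shh, Spearman correlation shared 1 and a pseudocount of 0.1 shared 2, and for Gli1 these were 2 and 3. The cause of these changes was not tested. Shh, Gli1 and Hhip rested on few counts in several libraries, which limits what could be detected there.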
